A study of Homo sapiens with 5 samples.

Results

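The HOX genes encode homeodomain transcription factors that give cells their position along the body axis. In mammals they lie in 4 clusters, HOXA on chromosome 7, HOXB on chromosome 17, HOXC on chromosome 12 and HOXD on chromosome 2, and genes of the same number in different clusters are paralogs that descend from a shared ancestor. Genes with low numbers, at the 3' end of a cluster, are switched on early and act toward the head, and genes with high numbers, at the 5' end, act toward the tail and in the limbs and urogenital tract. In the embryonic kidney the paralogs HOXA11, HOXC11 and HOXD11 are needed for the metanephros to form, and established lines keep part of the HOX pattern of their tissue of origin.

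The HOX genes were taken by symbol as all rows of the deposited count table named HOXA, HOXB, HOXC or HOXD followed by a number. This gave 37 of 24497 gene rows, of which 11 are in HOXA, 10 in HOXB, 7 in HOXC and 9 in HOXD. RefSeq lists 39 such symbols, and the other 2, HOXC4 and HOXC12, have no row under these symbols in the table used. The cells were HEK293, an established line of human embryonic kidney origin, transformed with adenovirus DNA, grown in serum-containing medium and given no treatment. The 5 libraries, 2 of batch A and 3 of batch B, differ by label only in batch, and all carried the cDNA of 100 cells taken from a lysate of 1000 cells, amplified by 18 cycles of PCR, with selection of the 5' end of each transcript. The columns of batch A end in the numbers 2 and 3 and those of batch B in 1, 2 and 3, and the libraries are named by these numbers. The labels do not say whether libraries came from separate cultures, so the p-values speak to variation among these libraries alone, and that variation may be technical.

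Libraries held 373687 to 803168 gene counts. In the table, 0 counts of a gene allow a level of up to 3.74 CPM (counts per 1000000 gene counts of the library) in the deepest and 8.03 CPM in the shallowest library, taking 3 counts as the limit. Over all 5 libraries, with 3124391 gene counts, the limit is 0.96 CPM. These limits and the intervals below cover counting error only. Among genes known from HEK293, VIM had 1473 counts, NEFL 188, KRT18 196 and LHX1, a kidney and neural regulator, 54. All 7 genes of that list had a count, but PAX2, the lowest, had only 8 over the 5 libraries, at 1.46 to 4.98 CPM. Of the markers of other cell types that have a row, CD3E, COL1A2 and ALB were at 0 counts and COL1A1 had 34. Spike-in counts were 1785 and 2127 in batch A and 1 to 19 in batch B, although the labels give 20000 spike-in molecules per cell for both batches. The cause of this gap was not tested.

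Promoter sequences are shown because reads of this assay begin at transcript starts. They are those of the 3 most abundant HOX genes with a window in the RefSeq promoter set used and of the 3 HOX genes without a single count. HOXA5, more abundant than HOXA9, had no window in that set and is not shown. Each line gives the 250 bases before the start that lies farthest 5', 5' to 3' on the strand of the gene, with every CG dinucleotide in capitals. HOXA10 has another window (chr7:27174271-27174570) that is not shown, and counts per gene do not tell which start was used. Coordinates are those of RefSeq on GRCh38.p14, while the deposited data were made on hg19.
HOXA10 (chr7:27179862-27180111, minus strand): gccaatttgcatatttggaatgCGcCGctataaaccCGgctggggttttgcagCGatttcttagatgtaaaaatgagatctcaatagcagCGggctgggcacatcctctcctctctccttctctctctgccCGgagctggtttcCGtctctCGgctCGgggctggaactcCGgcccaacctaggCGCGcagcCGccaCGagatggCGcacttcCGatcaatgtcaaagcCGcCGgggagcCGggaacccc
HOXD13 (chr2:176092471-176092720, plus strand): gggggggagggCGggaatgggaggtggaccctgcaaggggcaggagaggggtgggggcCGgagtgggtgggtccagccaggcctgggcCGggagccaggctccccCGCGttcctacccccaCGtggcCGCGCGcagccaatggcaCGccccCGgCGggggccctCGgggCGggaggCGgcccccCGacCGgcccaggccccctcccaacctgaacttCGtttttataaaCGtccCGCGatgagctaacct
HOXA9 (chr7:27165538-27165787, minus strand): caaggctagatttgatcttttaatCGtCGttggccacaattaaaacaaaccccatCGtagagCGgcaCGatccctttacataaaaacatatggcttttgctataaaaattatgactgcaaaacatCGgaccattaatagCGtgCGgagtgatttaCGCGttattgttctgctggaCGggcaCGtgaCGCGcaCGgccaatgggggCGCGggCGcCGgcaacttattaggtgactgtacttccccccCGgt
HOXB1 (chr17:48531012-48531261, minus strand): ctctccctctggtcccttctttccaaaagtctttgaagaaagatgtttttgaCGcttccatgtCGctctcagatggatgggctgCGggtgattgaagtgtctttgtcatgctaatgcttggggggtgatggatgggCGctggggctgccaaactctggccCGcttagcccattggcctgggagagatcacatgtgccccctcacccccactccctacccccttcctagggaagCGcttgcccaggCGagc
HOXD1 (chr2:176188418-176188667, plus strand): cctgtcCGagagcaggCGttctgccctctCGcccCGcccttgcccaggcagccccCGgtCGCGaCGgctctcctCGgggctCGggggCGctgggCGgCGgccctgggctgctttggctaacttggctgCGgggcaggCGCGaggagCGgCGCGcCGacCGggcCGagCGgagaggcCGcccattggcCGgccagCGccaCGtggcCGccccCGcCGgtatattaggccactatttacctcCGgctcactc
HOXD12 (chr2:176099545-176099794, plus strand): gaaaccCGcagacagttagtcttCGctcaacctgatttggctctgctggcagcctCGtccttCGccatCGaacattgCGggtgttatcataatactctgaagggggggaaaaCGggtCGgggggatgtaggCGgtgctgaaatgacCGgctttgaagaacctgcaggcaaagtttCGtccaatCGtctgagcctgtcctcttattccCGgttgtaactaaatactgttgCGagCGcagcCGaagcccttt
The HOXA10, HOXD13 and HOXA9 stretches hold 19, 21 and 20 CG dinucleotides, and those of HOXB1, HOXD1 and HOXD12 hold 7, 31 and 16. RefSeq promoter windows of 300 bases, 250 before and 50 after a start, were matched for 19 of the 37 HOX genes, 26 windows in all. HOXB1 was the only HOXB gene and HOXC5 the only HOXC gene among them, and HOXA3 gave 7 windows. Their median was 22.5 CG dinucleotides, with a range of 0 to 44, against 14 over 35116 windows of all genes. The letters TATAAA, searched on both strands, stood in 5 of the 26 windows, those of HOXA10 (both of its windows), HOXA9, HOXD13 and 1 of the 7 windows of HOXA3, and in 11.5% of all windows. TGATNNAT, a form of the site that HOX and PBX proteins bind together, stood in windows of HOXA2, HOXB1 and HOXD11 and in 7.4% of all windows, with both strands searched. CCAAT stood in 17 of the 26 windows and in 34.6% of all. Matches of different motifs were counted separately, also where they could share bases.

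HEK293 expressed a broad set of HOX genes at low to moderate level. Of the 37 genes, 34 (91.9%) had at least 1 count and 29 had a count in every library, while 82% of all gene rows had at least 1 count. All HOX genes together took 2777 counts, or 0.0889% of gene counts. The most abundant were HOXA10, HOXD13, HOXA5 and HOXA9, which held 45% of all HOX counts, and the 10 most abundant genes held 66.3%. HOXA10 lay above 92.6% of all gene rows by mean CPM, and 24 HOX genes had a mean above 10 CPM. In a bulk library, fewer cells with a transcript and less of it per cell cannot be told apart.

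**Figure D1:**
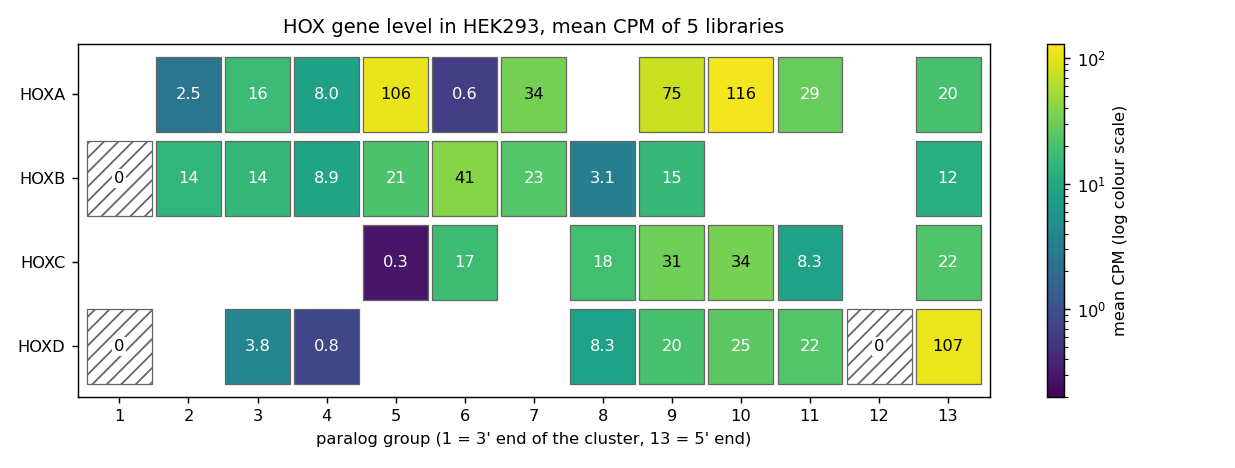
Mean CPM over the 5 libraries for each HOX gene, by cluster (rows) and paralog group (columns), with a log colour scale. Hatched cells are the 3 genes at 0 counts, and empty positions have no gene, no row in the table used or a value not reported here. The highest values, 116 for HOXA10, 107 for HOXD13, 106 for HOXA5 and 75 for HOXA9, stand in 2 of the 4 clusters.

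By cluster, HOXA held the largest part of HOX counts, at 48% (95% exact Clopper-Pearson interval 46.1 to 49.8), followed by HOXD at 20.8% (19.3 to 22.3), HOXB at 16.6% (15.3 to 18.1) and HOXC at 14.6% (13.3 to 16). The share of HOXA was 46.3% to 50.6% in single libraries, that of HOXB 14.7% to 18.1%, that of HOXC 12.2% to 16.5% and that of HOXD 18.9% to 22.7%. HOXA was the highest cluster in each of the 5 libraries and HOXD the next in each, while HOXC exceeded HOXB in batch A library 3 and was below it in the other 4. A single gene made up most of HOXD, since HOXD13 held 56.8% of that cluster, whereas HOXA10, HOXB6 and HOXC10 each held 25.9% to 27.3% of theirs. The clusters differ in the number of rows, and per row the mean was 39.1 CPM in HOXA, 20.7 in HOXD, 18.7 in HOXC and 15.2 in HOXB. HOXC4 and HOXC12 have no row of their own, so the order of HOXB and HOXC holds only for the rows counted.

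By position, paralog groups 9 to 13 took 59.6% of HOX counts over 15 rows, groups 4 to 8 took 32.2% over 14 rows and groups 1 to 3 took 8.21% over 8 rows. This order held in each library, with shares of 56.7% to 62.7%, 30.9% to 34% and 6.45% to 9.87%. The distribution differed between clusters. In HOXD the summed level was 174 CPM for groups 9 to 13, 9.13 CPM for groups 4 to 8 and 3.78 CPM for groups 1 to 3, as means of 5 libraries. In HOXC, without rows for HOXC12 and HOXC4, it was 95.5 CPM for groups 9 to 13 and 35.7 CPM for groups 4 to 8. In HOXA groups 9 to 13 had 240 CPM, groups 4 to 8 had 148 and groups 1 to 3 had 41.4. HOXB had its largest sum, 96.4 CPM, in groups 4 to 8, with 28.3 in groups 1 to 3 and 27 in groups 9 to 13. Among single paralog groups the highest were group 10, at 175 CPM (range over libraries 162 to 193), group 13, at 160 (133 to 179), group 9, at 142 (108 to 182), and group 5, at 127 (97.5 to 155), and these ranges overlapped except those of groups 10 and 5.

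HOXA10, which patterns the lumbar region and the reproductive tract, was the most even of the abundant HOX genes. It had 77 and 95 counts in batch A libraries 2 and 3, and 42, 70 and 79 counts in batch B libraries 1, 2 and 3. Means were 115 ± 4.37 CPM (SD, n = 2) for batch A and 116 ± 4.73 CPM (SD, n = 3) for batch B. The libraries of the batches overlapped, and the whole range was 112 to 122 CPM. HOXA9, a regulator of blood progenitors and of the thoracic and lumbar axis, had 47 and 51 counts in the batch A libraries, and 37, 37 and 56 counts in those of batch B. Batch B library 1 was the highest, at 99 CPM, and the others lay between 63.5 and 81.7 CPM. Exons of HOXA10 and HOXA9 overlap on the same strand with the row AC004080.3 in GENCODE 29, so reads may be shared between these genes.

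HOXD13, needed for the digits and the hindgut and genital end of the axis, was counted 65 and 94 times in the batch A libraries and 47, 62 and 60 times in those of batch B. Its means were 106 ± 15.8 CPM and 107 ± 19.1 CPM (SD, n = 2 and 3), and the batches overlapped, with the highest value in batch B library 1 and the lowest in batch B library 3. HOXD12, its neighbour, had 0 counts in all 5 libraries. HOXD13 was thus at least 109-fold higher than HOXD12, taking 3 counts over the 5 libraries as the limit for HOXD12. HOXD11, on the other side of HOXD12 and a gene of the forearm and kidney, had 11 and 16 counts in the batch A libraries, and 5, 19 and 20 counts in those of batch B. By the same limit, HOXD11 was at least 23.7-fold higher than HOXD12. The shallow batch B library 1 was the lowest of the 5 for HOXD11 also in CPM, at 13.4. HOXD10, active in lumbar motor neurons and limbs, was counted 16 and 13 times in the batch A libraries and 9, 21 and 18 times in those of batch B. HOXD10 and HOXD11 share exon sequence on the same strand in GENCODE 29, and reads may be shared.

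HOXA5, which acts in the lung and the neck and upper trunk skeleton, stood far above its neighbours in the middle of HOXA. It had 59 and 78 counts in the batch A libraries, and 38, 71 and 84 counts in those of batch B, or 91.5 ± 7.93 and 116 ± 12.3 CPM (SD, n = 2 and 3), with all batch B libraries above both batch A libraries. HOXA6, the next gene, had 2 counts over the 5 libraries (0.64 CPM pooled), and HOXA4, on the other side, had 24. HOXA7 was counted 26 and 28 times in the batch A libraries and 12, 19 and 21 times in those of batch B, at 30.6 to 37.9 CPM. In HOXB the high gene was the paralog of HOXA6. HOXB6, expressed in the trunk and in blood progenitors, had 21 and 27 counts in the batch A libraries, and 19, 26 and 29 counts in those of batch B, while HOXC6 had 53 counts in all and HOXA6 2. Within paralog groups 5 and 6, HOXA5 therefore held 84% and HOXB6 68.9% of the counts.

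Of the other genes with the highest levels, HOXC10, a gene of hindlimb and lumbar identity, was counted 18 and 31 times in the batch A libraries and 15, 20 and 21 times in those of batch B. HOXC9, which sets thoracic motor neuron identity, had 14 and 27 counts in the batch A libraries, and 15, 16 and 23 counts in those of batch B. In HOXC9 and HOXC10 batch A library 2 was the lowest in CPM, and the batches overlapped. HOXA11, one of the kidney-forming paralogs, was counted 15 and 21 times in the batch A libraries and 11, 20 and 21 times in those of batch B. HOXC11 had 27 counts over the 5 libraries, against 88 for HOXA11 and 71 for HOXD11, so that all 3 paralogs of that group were detected. HOXB7 had 18 and 16 counts in the batch A libraries, and 8, 15 and 15 counts in those of batch B, at 19.9 to 26.2 CPM. HOXC13, which drives hair keratin genes, had 15 and 21 counts in the batch A libraries, and 9, 11 and 13 counts in those of batch B. HOXB5 was counted 7 and 14 times in the batch A libraries and 9, 18 and 14 times in those of batch B. In HOXA11, HOXB5, HOXB6 and HOXD10 every batch B library lay above both batch A libraries in CPM, while HOXB7 and HOXC13 overlapped.

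**Figure D2:**
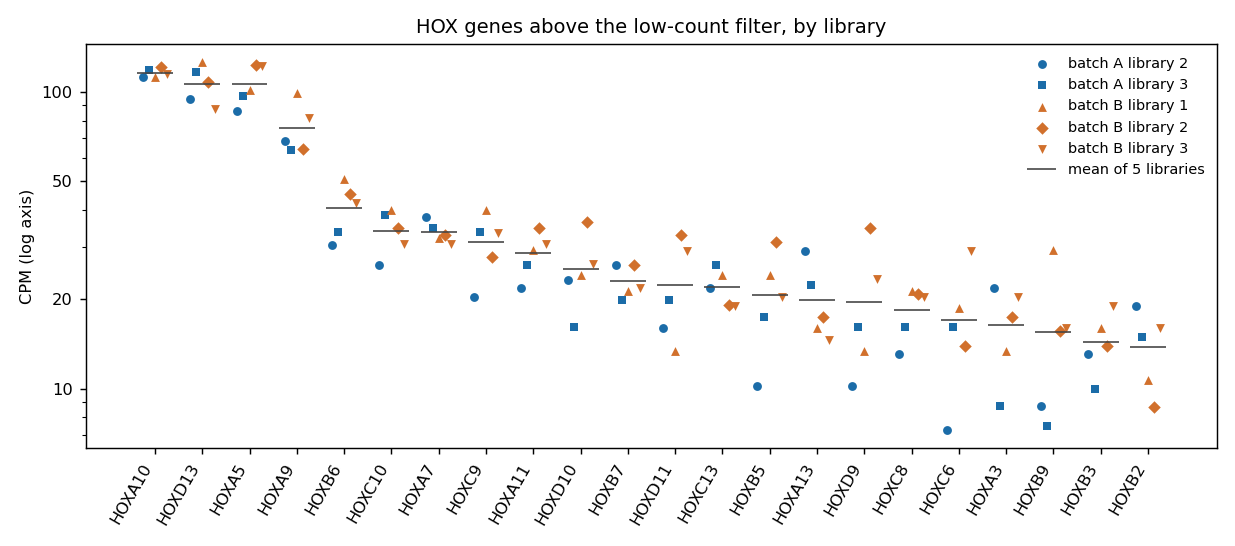
CPM (log axis) of 22 of the 23 HOX genes that passed the low-count filter, ordered by mean, with 1 symbol per library and a bar at the mean of 5 libraries. The step from HOXA9 to HOXB6 is the only step between neighbours in this order where the libraries of the higher gene all lie above those of the lower.

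Of 36 pairs of neighbours in the order of mean CPM, the ranges over the 5 libraries were separate for 1, HOXA9 (lowest 63.5 CPM) above HOXB6 (highest 50.8 CPM). HOXA10, HOXD13 and HOXA5 were thus not distinguished beyond the spread between libraries. Compared inside each library, HOXA5 also lay above HOXA9 in all 5, although their ranges overlapped. Because only 5' ends were selected, CPM was not divided by transcript length. Divided by the longest protein-coding GENCODE 29 transcript (an alternative added once the data had been seen), HOXA5 came first at 64.1 CPM per kb, before HOXD13 at 47.6, HOXA10 at 45.6 and HOXA9 at 36.6, and 8 of the 10 most abundant genes stayed in that set. Over the 37 HOX genes, Spearman's rho of library pairs was 0.907 to 0.942 inside a batch (4 pairs) and 0.847 to 0.938 across batches (6 pairs), as a description across genes that share a library and are not independent replicates.

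HOXD9, HOXC8, HOXA3, HOXB3 and HOXB2 had 44 to 61 counts, at means of 13.9 to 19.6 CPM, and a count in every library. At the low end, HOXB1, HOXD1 and HOXD12 had 0 of 3124391 counts, which allows up to 0.96 CPM over all libraries and 3.74 to 8.03 CPM in a single one. HOXC5 had 1 count, in batch A library 2, and HOXA6 and HOXD4 had 2 counts each. HOXA2 had 8 counts, HOXB8 9 and HOXD3 12, and these 3 genes never exceeded 8.69 CPM in a library, so that a value of 0 in 1 library, as for HOXA2 in batch B library 2 and HOXB8 in batch A library 3, does not set that library apart. HOXA4, HOXC11, HOXD8, HOXB4 and HOXB13, a gene of the prostate and the tail end of the axis, had 24 to 35 counts and at least 1 count in every library. HOXD8 was uneven, with 12 of its 26 counts in batch A library 2. These 11 genes with a count and the 3 without did not pass the filter for the batch comparison. Single libraries held counts of 31 to 33 HOX genes, and the shallowest, batch B library 1, held 32.

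Counts of neighbouring and overlapping rows limit what can be assigned to single HOX genes. In GENCODE 29, 19 of the 37 genes overlap an exon of another gene on the opposite strand and 17 on the same strand, and whether strand was used in counting is not given in the sources used here. HOXC5 and HOXC6 share exons with HOXC4, so reads of HOXC4 may stand in their rows or in none. HOXC6 also shares exons with HOXC5 and HOXC9, and HOXB3 with HOXB4 and HOXB6. These rows are reported as uncertain.

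Of 20 rows of noncoding RNAs and other small genes within the clusters, 17 had a count and 3, HOXB-AS2, HOXB-AS4 and PRAC1, had 0. HOTAIRM1, at the 3' end of HOXA, was the highest, with 32 and 49 counts in the batch A libraries, and 27, 28 and 29 counts in those of batch B, 165 in all. HOXB-AS3 had 97 counts and HOXA11-AS 61, beside 88 for HOXA11. HOTAIR, an RNA of the HOXC cluster known for its link to Polycomb repression, had 23 counts, and HOTTIP, next to HOXA13 at the 5' end of HOXA, had 1 count where HOXA13 had 64. HOXD-AS2 had 31 counts, HOXA-AS2 28, HOXC-AS1 22, HOXA10-AS 15, HOXD-AS1 13, PRAC2 10, HOXC-AS2 9, HOXB-AS1 7, and HOXA-AS3 and HOXC13-AS 5 each. The 3 rows that could be tested, HOTAIRM1, HOXB-AS3 and HOXA11-AS, had log2 fold changes between batches of -0.05, 0.15 and -0.17, and none passed the test. MIR10A, the row of a microRNA in HOXB, had 13 counts, of which 7 were in batch B library 3. It overlaps an exon of HOXB4 on the same strand in GENCODE 29, and reads may be shared. Its mature microRNA (RefSeq, GRCh38.p14, chr17:48579904-48579926, minus strand) is shown with the seed, bases 2 to 8, in capitals, because that is the product this stretch of HOXB is known for, while reads primed with oligo-dT come from longer polyadenylated transcripts.
hsa-miR-10a-5p: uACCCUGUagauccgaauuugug

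The labels set the libraries apart only by batch, and batch B was compared with batch A. None of the 23 tested HOX genes passed edgeR's quasi-likelihood test (lowest adjusted p = 0.190, for HOXB9). Of all 9215 tested genes 4.2% did, 2.15% with higher and 2.05% with lower values in batch B. Among only 23 genes, 0 calls lies near that share and does not set the HOX genes apart. By DESeq2 0 of the 4 HOX genes with an adjusted p were called (3.52% of all genes with one), and by limma-voom 0 of 23 (3.85%). At an unadjusted p under 0.05 edgeR gave 5 HOX genes, HOXB9 and HOXA5 among them, all with higher values in batch B, against 16.4% of all tested genes in either direction and 8.3% with higher values. At that threshold limma-voom gave 3 (16.5% of all genes) and DESeq2 0 (3.79%). The fitted log2 fold changes ran from -0.65 (SE 0.42) for HOXA13 to 1.26 (SE 0.54) for HOXB9, and 18 of 23 were above 0, against 50.4% of all tested genes. Their median was 0.38, against 0.00 over all tested genes. These counts are a description of the 23 genes that passed the filter and no test of the family.

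**Figure D3:**
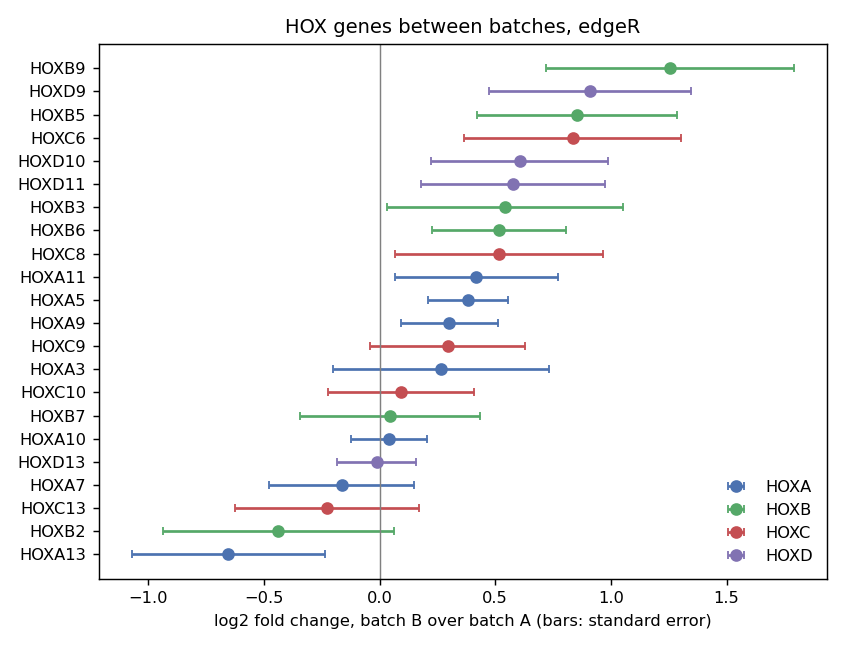
Log2 fold change of batch B over batch A (points) with its standard error (bars) for 22 of the 23 tested HOX genes, coloured by cluster. HOXA10 and HOXD13 lie at 0 within a standard error, and the points with the longest bars are genes of low count such as HOXB9 and HOXB3.

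Precision followed the counts. HOXA10 had a log2 fold change of 0.04 (SE 0.16), with an approximate 95% interval of -0.28 to 0.36, and HOXD13 one of -0.01 (SE 0.17), with an interval of -0.35 to 0.32. For HOXA5, the most abundant gene whose libraries did not overlap, it was 0.38 (SE 0.17, edgeR adjusted p = 0.227). HOXB9, which acts in the thoracic skeleton, had 6 and 6 counts in the batch A libraries, and 11, 9 and 11 counts in those of batch B. Its libraries did not overlap, but its interval of 0.20 to 2.31 on the log2 scale was wide. In 11 of the 23 genes the libraries of the batches did not overlap, 9 of them higher and 2 lower in batch B, where 31.3% of all tested genes did not overlap (13.5% higher and 17.8% lower). HOXA7 and HOXA13 were the 2 lower genes. HOXA13 was counted 20 and 18 times in the batch A libraries and 6, 10 and 10 times in those of batch B (edgeR adjusted p = 0.460).

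Summed over all 37 genes, HOX counts came to 796 and 830 CPM in libraries 2 and 3 of batch A, and 947, 982 and 940 CPM were reached in libraries 1, 2 and 3 of batch B. All batch B libraries lay above both batch A libraries, and the ratio of the means was 1.18. HOXA had 398 ± 6.95 CPM in batch A and 451 ± 10.9 in batch B, and HOXB had 127 ± 6.37 and 168 ± 4.25 (SD, n = 2 and 3), with no overlap in either cluster. HOXC, at 117 ± 27.9 and 141 ± 10.4 CPM, overlapped between the batches. HOXD, at 171 ± 9.57 and 197 ± 23 CPM, was at 178 CPM both in the higher library of batch A and in the lowest of batch B. A sum over chosen genes gets no test here. Library 2 of batch A and library 3 of batch B had similar depth and were picked with their values known. Their HOX counts were 547 and 644. Depth, spike-in content and the batch moved together in part, and their part in the difference was not tested.

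**Figure D4:**
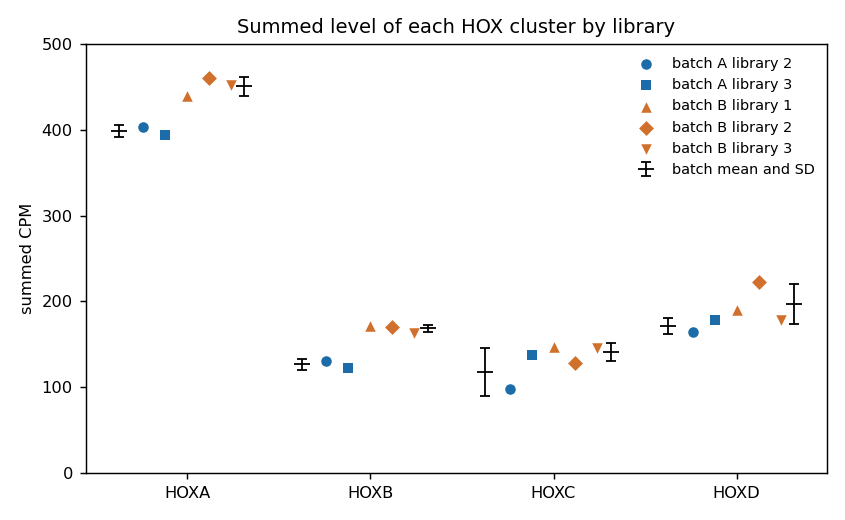
Summed CPM of each HOX cluster in each library (symbols, blue for batch A and orange for batch B), with the batch mean and SD in black. HOXA lies at 393 to 460 CPM in all libraries and the other clusters between 97.5 and 222 CPM.

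HOX proteins bind DNA with TALE homeodomain cofactors of the PBX, MEIS and PKNOX families, and all 9 of these genes were detected. PBX3 had 129 counts over the 5 libraries and PKNOX1 100. MEIS1, MEIS2 and MEIS3 had 54 to 58 counts. Of the 8 tested, 1 rose and 0 fell in batch B, with a median log2 fold change of 0.45, where 2.15% of all tested genes had higher and 2.05% lower calls. The riser was PKNOX2, with 4 and 4 counts in the batch A libraries, and 6, 12 and 16 counts in those of batch B, a log2 fold change of 1.93 (SE 0.58, edgeR adjusted p = 0.0280). That call was lost without either batch A library (edgeR adjusted p up to 0.286), without batch B library 2 or 3 (0.0621 and 0.115) and with limma-voom (adjusted p = 0.0865). Of related homeobox genes outside the clusters, CDX2, an activator of central HOX genes, had 128 counts, MNX1 59 and PDX1 9, and neither of the 2 tested, CDX2 and MNX1, passed the test (median log2 fold change 0.56).

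Of the 23 tested HOX genes, 4 lay above the median level of all tested genes, 45.9 CPM, and the regulators of HOX clusters are given on the same scale, which is not divided by length. The Polycomb repressive complexes keep HOX genes silent. All 11 genes of the PRC2 list were detected, led by the histone-binding subunits RBBP7 (427 CPM as the mean of 5 libraries) and RBBP4 (314 CPM) and the methyltransferase EZH2 (109 CPM), and none of 9 tested passed the test (median log2 fold change 0.04). Of the PRC1 list CBX6 (181 CPM), PHC2 (77.6 CPM) and BMI1 (69.1 CPM) were the highest. Of 14 tested 0 rose and 1 fell (median 0.14), where 2.05% of all tested genes were called lower. The gene was PCGF5, which fell by 0.90 on the log2 scale (SE 0.29, edgeR adjusted p = 0.0468). Leaving out library 2 of batch A ended its call (-0.61, edgeR adjusted p = 0.574), as did fits without batch B library 2 or 3 (0.187 and 0.127), on thinned counts (0.372), with all genes kept (0.0871) and with limma-voom (adjusted p = 0.0617).

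The MLL methyltransferase complexes keep HOX genes active. All 14 genes of this list that have a row were detected, and KMT2B is not among them. DPY30, a shared core subunit, led at 211 CPM, before PSIP1 at 151 and WDR5 at 116, and KMT2A, the MLL enzyme itself, stood at 93.4 CPM. Of 14 tested 0 rose and 1 fell (median log2 fold change 0.12), beside 2.05% of all tested genes called lower. DPY30 had 182 and 206 counts in the batch A libraries, and 61, 109 and 123 counts in those of batch B and fell by 0.52 on the log2 scale (SE 0.12, edgeR adjusted p = 0.00244), a call that ended when library 2 of batch A was left out (edgeR adjusted p = 0.0952). CTCF and cohesin, which fold the clusters into domains, gave 7 tested genes, none of which passed the test (median log2 fold change 0.09), led by SMC1A (256 CPM), STAG2 (234) and RAD21 (186), with CTCF at 70.4 CPM.

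Retinoic acid turns on the 3' HOX genes through its nuclear receptors. All 12 genes of this list that have a row were detected, and of 6 tested 1 rose and 0 fell (median log2 fold change 0.49), beside 2.15% of all tested genes called higher. CRABP2, which carries retinoic acid to the receptors, was counted 79 and 95 times in the batch A libraries and 71, 111 and 142 times in those of batch B. Every batch B library exceeded both batch A libraries in CPM, at 117 ± 2.31 against 197 ± 9.24 (SD, n = 2 and 3), and it rose by 0.78 on the log2 scale (SE 0.14, edgeR adjusted p = 1.37e-05). The synthesizing enzyme ALDH1A2 followed at 86.2 CPM and the receptor RXRB at 37.3 CPM. The receptors RARA, RARB and RARG had 43, 29 and 41 counts. The HOX genes of groups 1 to 3 summed to 66.1 ± 17.7 CPM in the 2 libraries of batch A and 78.4 ± 9.86 CPM in the 3 of batch B. The batches overlapped in this sum, and a link to the retinoic acid genes was not tested.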

How the data were processed

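Values are whole-number counts per gene, deposited by the authors without normalization. The tools named are STAR 2.4.0a and cutadapt 1.2.1, and the builds hg19 and GRCh37, per the submitters' processing notes. Not given in the sources used here are the counting tool, the annotation, strand use and whether molecular identifiers were collapsed, without which intervals and limits understate the error.

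The start of a column name, shared with sample titles, gave its batch, and 0 were left unused. CPM used gene counts without the 52 spike-in rows. Batch B was compared with batch A over the whole table with edgeR 4.0.16 in R 4.3.3 (TMM, filterByExpr, quasi-likelihood F test, batch as the only term, Benjamini-Hochberg adjusted p under 0.05 as a call), which left 9215 genes with 97.1% of gene counts. The SE was taken as the size of the log2 fold change over the root of F. Prior degrees of freedom were infinite, so the spread was pooled over genes. The test was also run on data simulated with a common spread for all genes. That run was not used to judge whether differences of HOX genes could be called. Alternatives were DESeq2 1.42.0, limma-voom (limma 3.58.1), other scalings and filters, thinning and leaving out libraries. A lone batch A library then borrows the spread of batch B.

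Per-library values are given for the 15 HOX genes of highest mean CPM except one, with others by counts and ranges, and the 3 highest and the called genes of each other list. Other genes given with values, among them HOXB9, HOXA13, KMT2A, CTCF and the RAR genes, were chosen after their values were seen. Some single-gene results are not reported here. The genes and lists were chosen with earlier results of these data known. Promoters and the microRNA are from RefSeq (GRCh38.p14), matched by symbol, and overlaps from GENCODE 29.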

Additional observations from a re-analysis of the deposited data

How the results depend on the processing

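The count of HOX genes called between batches stayed at 0 under all alternatives run, the lowest adjusted p being 0.157, and 242 of 250 log2 fold changes of HOX genes with an adjusted p kept their direction. HOXD13 turned to 0.01 (0.0062) with DESeq2 and to 0.00 (0.0040) with a mean count of at least 20, and ranged from -0.12 to 0.16 with a library left out. With a library left out HOXA3 ranged from -0.30 to 1.04, HOXB7 from -0.17 to 0.27 and HOXC10 from -0.12 to 0.40. The cause was not tested. Over all genes the 387 calls became 111 with DESeq2, 212 after thinning to the smallest library in a single draw, and 138 to 333 with a library left out (batch A: 138 when library 2 and 152 when library 3 was dropped; batch B: 202 when library 2 was dropped). With totals that leave out mitochondrially encoded genes, which are smaller by construction, HOXA was at 411 CPM in batch A and 472 in batch B, HOXB in batch B at 176, and all HOX genes together at 840 and 1001 CPM. Without HOXA10 the shares of HOX counts were 40.1% in HOXA, 19.1% in HOXB, 16.8% in HOXC and 23.9% in HOXD. The number of HOX genes with a count was 29 to 34 under all settings run. Scaling to coding length was not run, and transcript length was used in its place. The numbers 2 and 3 end column names in both batches, but no label says that they pair libraries. Deviations from the batch means of same-numbered libraries had r = 0.011 for 2 and -0.017 for 3 over 9215 genes. The deviations of the 2 batch A libraries mirror each other, so these r values are not separate checks and do not settle whether libraries pair. A fit with this number as a replicate block, added after seeing the data, called 394 genes and 0 HOX genes, and its batch term rests on libraries 2 and 3 of each batch.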
